A study of Mus musculus with 18 samples.

Results

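The mouse Notch family has 4 receptor genes, Notch1, Notch2, Notch3 and Notch4, and 5 genes for its classical ligands, Dll1, Dll3, Dll4, Jag1 and Jag2. These 9 genes were followed in lung tumors of 3 genotypes, in a table of RNA-seq counts for 46078 genes and in a table of ATAC-seq counts for 111664 peaks. They were chosen by name, as the receptor and ligand genes of the family, and not by a threshold on a measured value, but with earlier results of these data known. All 9 passed the filter on low counts, in an RNA test of 15514 genes. Every peak that touched the stretch from 5000 bp upstream of one of the genes to its end was counted with it, which gave 67 peaks, and all 67 passed the filter on low counts.

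All mice carried floxed alleles of Rb1, p53 and a further retinoblastoma family gene (the TKO model), named Rbl1 in the sample labels and Rbl2 in most of the study's text. TKO alone was the control. TKO;Carm1KO tumors (below, CARM1 knockouts) carried in addition a floxed allele of Carm1, the gene of an arginine methyltransferase. TKO;NfibR388K tumors (below, NFIB mutants) carried a knock-in that replaces the arginine of the transcription factor NFIB that CARM1 methylates by lysine. Adenovirus with Cre was given into the trachea at 8 weeks of age, and cancer cells were collected 28 weeks later from 3 animals per genotype. RNA-seq and ATAC-seq thus had 3 libraries per genotype and 9 per assay. The virus deletes the floxed genes in whichever lung cells it enters, so the model does not fix the cell of origin, while the NFIB change is present throughout the animal. The Methods describe sorting for a tdTomato reporter that Cre switches on. The Results speak of tumor biopsies shared by both assays, and the ATAC-seq method also names cell lines, which leaves unclear what was sequenced.

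Notch receptors are membrane proteins that bind ligands on a neighbouring cell. Binding lets ADAM proteases and then gamma-secretase cut the receptor, and the freed intracellular domain enters the nucleus, joins RBPJ and Mastermind proteins and activates genes such as those of the Hes and Hey families. In the lung, Notch activity steers epithelial progenitors away from the neuroendocrine fate, and small cell lung cancer, a neuroendocrine tumor, is known for high DLL3, a ligand that stays largely inside the cell and dampens Notch signaling in the cell that makes it.

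The stretches of DNA below are taken from places where the chromatin of 6 of these genes differed between the genotypes. They come from the RefSeq sequence of GRCm38, the build of the files, run 5′ to 3′ on the strand of the gene, and cover the 250 bases upstream of Dll3, whose promoter peak was the most changed peak of that gene, and the middle 300 bases of the most changed peak of 5 other members. None touches an annotated exon. Capitals mark matches on either strand to an E-box (CAGCTG, a form bound by bHLH factors), an AP-1 site (TGANTCA) or the core of the RBPJ site (TGGGAA). A match is a description of the letters and not a mapped binding site.
Dll3, upstream of the start, chr7:28302239-28302488, minus strand: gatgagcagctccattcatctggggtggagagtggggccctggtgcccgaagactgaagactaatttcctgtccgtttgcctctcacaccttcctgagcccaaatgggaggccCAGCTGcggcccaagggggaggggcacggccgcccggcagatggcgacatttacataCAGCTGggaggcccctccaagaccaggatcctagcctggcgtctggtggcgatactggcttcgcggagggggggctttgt
Dll1, intragenic promoter peak, chr17:15371904-15372203, minus strand: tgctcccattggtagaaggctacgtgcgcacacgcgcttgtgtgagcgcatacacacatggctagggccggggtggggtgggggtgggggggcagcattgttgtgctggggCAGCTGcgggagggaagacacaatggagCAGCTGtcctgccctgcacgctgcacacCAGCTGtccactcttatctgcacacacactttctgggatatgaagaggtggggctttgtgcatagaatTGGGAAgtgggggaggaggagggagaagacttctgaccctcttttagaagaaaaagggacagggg
Jag2, intronic peak, chr12:112922211-112922510, minus strand: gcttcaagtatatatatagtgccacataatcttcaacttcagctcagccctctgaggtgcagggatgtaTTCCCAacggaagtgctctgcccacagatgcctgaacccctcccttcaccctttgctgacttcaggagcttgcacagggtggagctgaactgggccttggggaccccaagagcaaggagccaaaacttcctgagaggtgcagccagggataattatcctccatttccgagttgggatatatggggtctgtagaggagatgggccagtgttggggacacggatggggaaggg
Notch1, intronic peak, chr2:26487875-26488174, minus strand: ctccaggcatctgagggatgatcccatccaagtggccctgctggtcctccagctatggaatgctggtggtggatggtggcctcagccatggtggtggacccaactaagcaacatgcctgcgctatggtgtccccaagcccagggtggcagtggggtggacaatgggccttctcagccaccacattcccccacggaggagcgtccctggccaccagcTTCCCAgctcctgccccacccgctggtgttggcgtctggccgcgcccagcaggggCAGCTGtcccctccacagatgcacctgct
Notch2, intronic peak, chr3:98067778-98068077, plus strand: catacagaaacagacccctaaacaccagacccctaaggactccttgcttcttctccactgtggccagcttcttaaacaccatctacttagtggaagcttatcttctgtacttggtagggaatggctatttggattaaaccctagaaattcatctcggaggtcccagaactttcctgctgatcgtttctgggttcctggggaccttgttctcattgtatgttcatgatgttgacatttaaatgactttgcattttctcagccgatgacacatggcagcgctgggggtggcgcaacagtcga
Notch3, upstream peak, chr17:32169788-32170087, minus strand: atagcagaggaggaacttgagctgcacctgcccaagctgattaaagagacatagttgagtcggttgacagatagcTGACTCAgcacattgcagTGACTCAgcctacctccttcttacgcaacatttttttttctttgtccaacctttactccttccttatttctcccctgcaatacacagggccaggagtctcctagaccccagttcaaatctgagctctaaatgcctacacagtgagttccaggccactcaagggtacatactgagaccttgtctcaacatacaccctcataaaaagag

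The Dll3 stretch held 2 E-boxes, the Dll1 stretch 3 E-boxes and 1 RBPJ core, the Jag2 stretch 1 RBPJ core, and the intronic Notch1 stretch 1 of each. Notch3 had 2 AP-1 sites within its upstream peak, and the Notch2 stretch held no match. For comparison with the Dll3 stretch, of the 250 bases upstream of 21931 protein-coding genes 12.3% held the E-box, 6.05% the AP-1 site and 22.1% the RBPJ core. For comparison with the peaks, 22.7%, 23.7% and 27.3% of the middle 300 bases of all 111660 peaks read held them.

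Total counts ran from 15848866 to 20915057 per RNA library and from 26917178 to 47653979 per ATAC-seq library, so that 3 reads, taken as the limit of detection, stood for 0.143 to 0.189 CPM (counts scaled to a common library size) in RNA. This limit covers counting error only. The label of the cells was checked against 10 neuroendocrine markers, whose summed level was 1623 to 4188 CPM in TKO, 33.5 to 51.1 CPM in NFIB mutant libraries and 59.2, 189 and 1977 CPM in CARM1 knockout replicates 1, 2 and 3. The label of small cell lung cancer cells thus had little support from these markers in 5 of the 6 mutant RNA libraries and was borne out in CARM1 knockout replicate 3, and the RNA values of CARM1 knockouts that rest on that library are given with and without it. The summed level of 10 fibroblast and mural markers was 26.3 to 70.1 CPM in TKO and 10240 to 28271 CPM in the 6 mutant libraries, CARM1 knockout replicate 3 being the highest. Leukocyte markers summed to 3.63 to 54.3 CPM in TKO and 26.8 to 2670 CPM in the mutants. Lung epithelium markers summed to 15.6 to 46.5 CPM in TKO, 3.25, 9.68 and 778 CPM in CARM1 knockouts and 2735, 206 and 3.30 CPM in NFIB mutants. Carm1 itself was at 97.7, 103 and 44.5 CPM in TKO, at 63.4, 79.1 and 50.8 CPM in CARM1 knockouts and at 100.4, 104 and 102 CPM in NFIB mutants, so its CARM1 knockout and TKO ranges overlapped. Counts per gene do not separate the exons that Cre removes, so Carm1 RNA does not check the label. The amino acid change of NFIB cannot be seen in counts. Nfib RNA itself was at 420, 580 and 571 CPM in TKO. It was at 74.5, 216 and 87.2 CPM in CARM1 knockouts and at 105, 83.3 and 91.4 CPM in NFIB mutants. In edgeR's quasi-likelihood test its log2 fold changes against TKO were -2.06 (adjusted p = 0.00799) and -2.49 (adjusted p = 0.00325). Reads of Rbl1, the deleted gene of the labels, numbered 34 and 29 in TKO replicate 2 and NFIB mutant replicate 2 and 268 to 1531 in the other 7 libraries. Rb1 was at 60.4 to 92.3 CPM in TKO, 18.4 to 48.7 CPM in CARM1 knockouts and 8.58 to 32.6 CPM in NFIB mutants. In the same order, Rbl2 was at 16.4 to 24.3, 8.17 to 13.1 and 9.09 to 17.1 CPM. Trp53, the p53 gene, was at 9.62 to 12.4, 5.54 to 7.86 and 3.70 to 7.60 CPM. Floxed exons are not separated here either, so these counts do not check the deletions.

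Among the receptors, Notch2 and Notch3 RNA was higher in both mutants than in TKO and Notch1 RNA was higher in NFIB mutants, while Notch4 was not called in either comparison. The call for genes was a Benjamini-Hochberg adjusted p under 0.1 in edgeR's quasi-likelihood test and a log2 fold change of 0.8 or more in either direction. By this rule 2 of the 9 Notch genes were called in CARM1 knockouts, both higher, against 38.8% of all genes tested (20.5% higher and 18.3% lower). In NFIB mutants 3 were higher and 2 lower, against 45.8% of all genes (22.3% higher and 23.5% lower). With calls this common across the genome, the number of Notch genes called is near the background, and the results below are the levels and directions of the single genes. Scaling by total counts moved the median over all genes from -0.03 and -0.05 to -0.30 and -0.37 and the calls to 2508 higher and 3856 lower in CARM1 knockouts and 2687 and 4816 in NFIB mutants. Both comparisons share the TKO libraries. In bulk RNA, fewer cells of a type and less RNA per cell cannot be told apart.

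Notch2 (ENSMUSG00000027878, chr3:98013527-98150361, plus strand) encodes the receptor with the most RNA per exon length in all 9 libraries. Its level was 30.9, 61.2 and 39.1 CPM in TKO, 136, 320 and 132 CPM in CARM1 knockouts and 170, 246 and 136 CPM in NFIB mutant replicates 1, 2 and 3. Each of the 6 mutant libraries lay above all 3 TKO libraries. The log2 fold change was 2.16 (SE 0.44, adjusted p = 0.00941) in CARM1 knockouts and 2.07 (SE 0.44, adjusted p = 0.00875) in NFIB mutants. Without CARM1 knockout replicate 3 the former was 2.42 (adjusted p = 0.00972).

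Notch3 (ENSMUSG00000038146, chr17:32120820-32166852, minus strand), a receptor known for its role in the mural cells of blood vessels, was nearly absent from TKO, at 1.11, 0.656 and 0.0443 CPM, or 23, 15 and 1 reads. In CARM1 knockout it was at 7.32, 8.75 and 73.3 CPM, and in NFIB mutants at 23.9, 6.23 and 16.6 CPM. The groups did not overlap, and CARM1 knockout replicate 3, with 1304 reads, was the highest library. The log2 fold change was 5.62 (SE 1.38, adjusted p = 0.0179) in CARM1 knockouts and 4.68 (SE 1.32, adjusted p = 0.0244) in NFIB mutants. Leaving out CARM1 knockout replicate 3 gave 3.78 (SE 1.05, adjusted p = 0.0325). The mean CARM1 knockout level was 49.5-fold that of TKO with this library and 13.4-fold without it. Of the mural markers, Pdgfrb was at 2.84 to 10.2 CPM in TKO and 190 to 924 CPM in the mutants, called higher in both (log2 fold changes 6.76 and 5.93). Rgs5 was at 0.262 to 3.32 CPM in TKO and 0 to 2.22 CPM in the mutants, while Acta2, of smooth muscle and myofibroblasts, was at 0.443 to 6.68 CPM in TKO and 71.6 to 1537 CPM in the mutants. Cspg4 was at 0.133 to 2.64 CPM in TKO, 0.203, 0.758 and 14.4 CPM in CARM1 knockouts and 12.5, 24.3 and 0.318 CPM in NFIB mutants. Neither Rgs5 nor Cspg4 was called in either mutant. The part of other cell types in the Notch2 and Notch3 difference was not tested.

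Notch1 (ENSMUSG00000026923, chr2:26457903-26516663, minus strand), the receptor with the broadest known roles in development, was at 5.04, 15.05 and 10.01 CPM in TKO and at 27.3, 10.1 and 16.6 CPM in CARM1 knockouts. NFIB mutant libraries had 37.1, 37.3 and 13.02 CPM. Both mutants overlapped with TKO, CARM1 knockout through replicate 2 and NFIB mutant through replicate 3. The log2 fold change of 1.54 (SE 0.58, adjusted p = 0.0628) in NFIB mutants passed the threshold, and that of 0.84 (SE 0.57, adjusted p = 0.272) in CARM1 knockouts did not. The NFIB mutant call was lost without TKO replicate 1 (adjusted p = 0.153), TKO replicate 3 (0.119), NFIB mutant replicate 1 (0.147) or NFIB mutant replicate 2 (0.158), each time with the direction kept. Notch4 (ENSMUSG00000015468, chr17:34564268-34588503, plus strand), a receptor mainly known from endothelium, was at 1.09 to 2.53 CPM in TKO, 0.6999 to 2.58 CPM in CARM1 knockouts and 0.790 to 4.26 CPM in NFIB mutants. These ranges overlapped, and the log2 differences of 0.04 (SE 0.83) and 0.19 (SE 0.83) were smaller than their errors and changed sign under other scalings. The sum of 8 endothelial markers was 6.17 to 21.9 CPM in TKO, 4.08 to 77.2 CPM in CARM1 knockouts and 2.29 to 12.5 CPM in NFIB mutants. Of the 6 markers tested, 1 was called higher and 0 lower in CARM1 knockouts, and 1 higher and 1 lower in NFIB mutants. Cdh5, the higher one, had 1, 0 and 0 reads in TKO, 5, 12 and 3 in CARM1 knockouts and 4, 45 and 10 in NFIB mutants (adjusted p = 0.0443 and 0.0126). Kdr was the lower one in NFIB mutants (-4.71, adjusted p = 0.0620) and was not called in CARM1 knockouts (-0.17). The part of endothelium in Notch4 RNA was not tested. Genes on the other strand overlap Notch1, Notch3, Notch4, Dll1 and Dll4. The strand setting of the counting is not given in the sources used here, so reads of such overlapping pairs cannot be told apart.

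**Figure D1:**
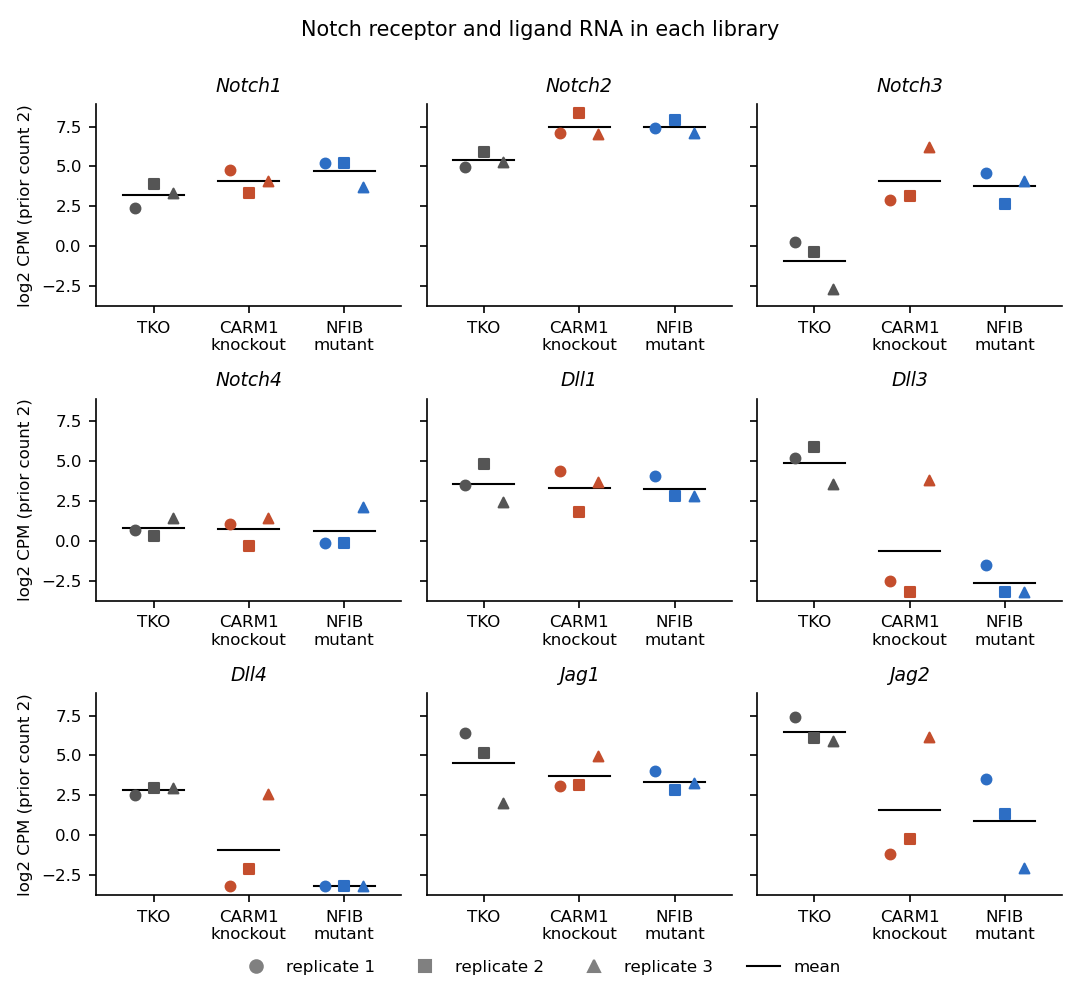
RNA level of each Notch gene in each library, as log2 CPM with a prior count of 2, by genotype (columns of points) and replicate (symbol); black lines are means of 3 libraries. Notch2 and Notch3 lie higher in all 6 mutant libraries than in TKO, and for Dll3, Dll4 and Jag2 the triangle of CARM1 knockout replicate 3 lies at the level of TKO while the other 5 mutant libraries lie below TKO.

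Of the 5 ligands, Dll3 and Dll4 RNA was lower in NFIB mutants than in TKO, and no ligand was called higher in either mutant. In CARM1 knockout no ligand was called with all 3 libraries, where replicate 3 held Dll3, Dll4 and Jag2 at the level of TKO. Without that library Dll3, Dll4 and Jag2 were called lower, so that 5 of the 9 genes were called in CARM1 knockouts (39.6% of all genes) and in the same fit, 6 in NFIB mutants (45.7% of all genes), Jag2 being the addition. The summed neuroendocrine markers given above were low in the same 5 mutant RNA libraries, and the lung epithelium markers were highest in NFIB mutant replicate 1 and CARM1 knockout replicate 3. Their part in the ligand differences was not tested.

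Dll3 (ENSMUSG00000003436, chr7:28293553-28302238, minus strand), the inhibitory ligand, was at 35.6, 58.4 and 11.6 CPM in TKO, or 740, 1336 and 262 reads. In NFIB mutant replicates 1, 2 and 3 it had 4, 0 and 0 reads. CARM1 knockout replicates 1 and 2 had 1 read and none, but replicate 3 had 248 reads, or 13.9 CPM, above the lowest TKO library. The log2 fold change was -8.63 (SE 2.65, adjusted p = 0.0325) in NFIB mutants. It was -2.91 (SE 1.94, adjusted p = 0.265) in CARM1 knockouts and passed the threshold without replicate 3 (adjusted p = 0.00869). Set against the pooled reads of the mutant libraries, the mean TKO level was 426-fold that of NFIB mutants (95% Poisson interval of the 4 mutant reads, 166 to 1564) and 1123-fold that of the first 2 CARM1 knockout libraries (202 to 44348, from 1 read). These intervals cover counting error of the mutant reads only and not the spread between animals.

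Dll4 (ENSMUSG00000027314, chr2:119325784-119335962, plus strand), a ligand best known from sprouting vessels, was at 5.57, 7.70 and 7.62 CPM in TKO, which was the narrowest spread of the 5 ligands there. No read fell on it in any NFIB mutant library, a level at least 37.4-fold lower than TKO when set at 3 reads per library (adjusted p = 0.0363). CARM1 knockout libraries had 0, 2 and 106 reads, the last of them, in replicate 3, being 5.96 CPM and within the TKO range. The log2 fold change in CARM1 knockouts was -1.78 (SE 1.75, adjusted p = 0.458), and without replicate 3 Dll4 was called lower (adjusted p = 0.0161), the mean TKO level being 111-fold that of the pooled remaining 2 libraries (95% Poisson interval of the 2 reads, counting error only, 30.7 to 917).

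Jag2 (ENSMUSG00000002799, chr12:112907819-112929776, minus strand), a Serrate-type ligand, was at 169, 69.4 and 59.9 CPM in TKO. NFIB mutant libraries had 11.4, 2.40 and 0.127 CPM, all below TKO, with a log2 fold change of -4.42 (SE 2.08) that missed the threshold (adjusted p = 0.118). CARM1 knockout libraries had 0.339, 0.758 and 71.8 CPM. Replicate 3 lay inside the TKO range and replicates 1 and 2 far below it. The log2 fold change of -2.03 (SE 1.87, adjusted p = 0.416) became -7.42 (SE 1.80, adjusted p = 0.0217) without replicate 3, and the NFIB mutant value in that fit was -4.39 (adjusted p = 0.0301).

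Jag1 (ENSMUSG00000027276, chr2:137081456-137116644, minus strand), the other Serrate-type ligand, was at 83.9, 36.3 and 3.90 CPM in TKO. TKO replicate 3 lay below every mutant library, at 8.47, 8.86 and 30.9 CPM in CARM1 knockouts and 16.1, 6.90 and 9.53 CPM in NFIB mutants. The log2 fold changes of -1.36 (SE 0.97, adjusted p = 0.296) and -1.93 (SE 0.99, adjusted p = 0.145) did not pass, and both passed without TKO replicate 3, at -1.87 (adjusted p = 0.0758) and -2.44 (adjusted p = 0.0313). Dll1 (ENSMUSG00000014773, chr17:15367354-15376872, minus strand), a ligand of the Delta type, was at 11.1, 27.8 and 5.36 CPM in TKO, 20.7, 3.32 and 12.6 CPM in CARM1 knockouts and 16.8, 6.84 and 6.99 CPM in NFIB mutants. The 3 groups overlapped, and the log2 fold changes of -0.27 (SE 0.80) and -0.53 (SE 0.80) were smaller than their errors and turned positive, at 0.57 and 0.31, without TKO replicate 2.

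**Figure D2:**
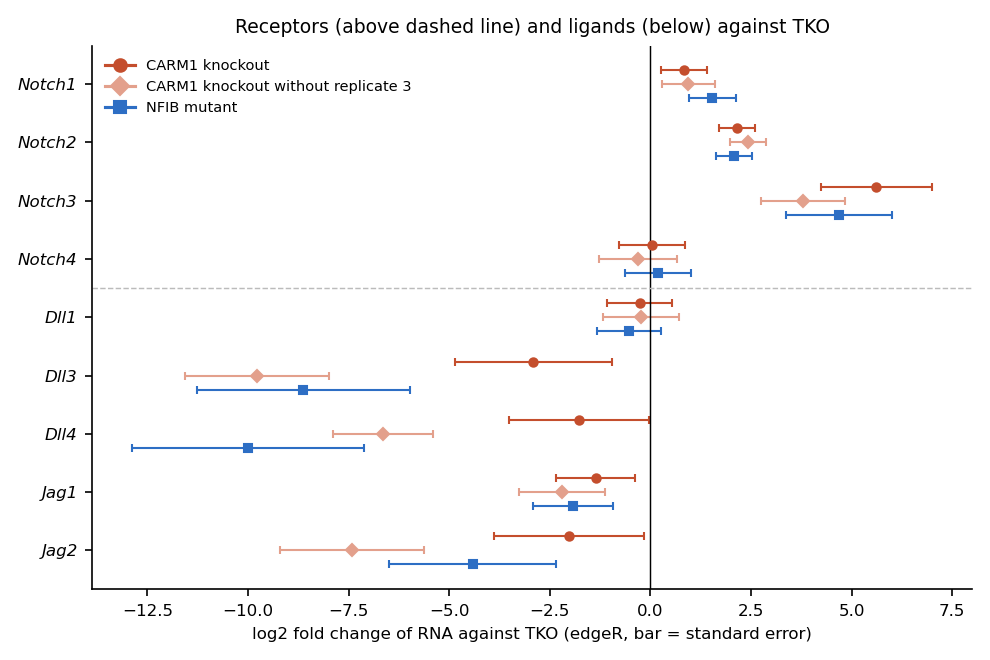
Log2 fold change of RNA against TKO (horizontal axis, edgeR, bars are standard errors derived from the test's F statistic) for the 4 receptors above and 5 ligands below the dashed line, in CARM1 knockouts with 3 libraries, in CARM1 knockouts without replicate 3 and in NFIB mutants. Without replicate 3 the CARM1 knockout values of Dll3, Dll4 and Jag2 move from -2.91, -1.78 and -2.03 to -9.78, -6.65 and -7.42, the largest sizes depending on the prior count since these genes had few or no reads, while Notch2 is at 2.16 and 2.42.

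Levels were compared between genes as RPKM, the CPM per 1000 bases of exon. In TKO the receptors stood in the order Notch2 (4.06 ± 1.45 RPKM, SD, n = 3), Notch1 (0.705 ± 0.351), Notch4 (0.211 ± 0.0918) and Notch3 (0.0744 ± 0.0658), with the ranges of Notch4 and Notch3 just overlapping. Notch2 made up 53.7 to 94.0% of the summed receptor RPKM over the 9 libraries, the lowest share being that of CARM1 knockout replicate 3, where Notch3 had 39.8%. Notch3 was last of the 4 in every TKO library and stood above Notch4 in every mutant library. Means in CARM1 knockouts were 18.2 ± 9.97 RPKM for Notch2, 3.68 ± 4.66 for Notch3, 1.26 ± 0.61 for Notch1 and 0.217 ± 0.119 for Notch4. In NFIB mutants they were 17.1 ± 5.23, 1.93 ± 1.10, 2.05 ± 0.98 and 0.242 ± 0.248, with Notch1 and Notch3 not separated in either mutant.

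TKO ligands followed as Jag2 (14.3 ± 8.64 RPKM, SD, n = 3), Dll3 (12.4 ± 8.22), Jag1 (7.10 ± 6.91), Dll1 (3.49 ± 2.76) and Dll4 (1.81 ± 0.31), and each range overlapped with that of the next ligand. In 5 of the 6 mutant libraries Dll1 and Jag1 were the 2 ligands with the most RNA per length, and Jag2 led in CARM1 knockout replicate 3. Summed ligand RPKM was 55.2, 45.3 and 16.6 in TKO, 6.44, 2.45 and 25.0 in CARM1 knockouts and 8.46, 3.15 and 3.31 in NFIB mutants. Summed receptor RPKM was 3.55, 6.95 and 4.65 in TKO, 15.7, 31.6 and 22.8 in CARM1 knockouts and 21.5, 26.3 and 16.1 in NFIB mutants. Every TKO library thus held more ligand than receptor RNA per length, CARM1 knockout replicate 3 held nearly the same of both, and the other 5 mutant libraries held more receptor than ligand RNA. Both sums describe these libraries and carry no test.

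**Figure D3:**
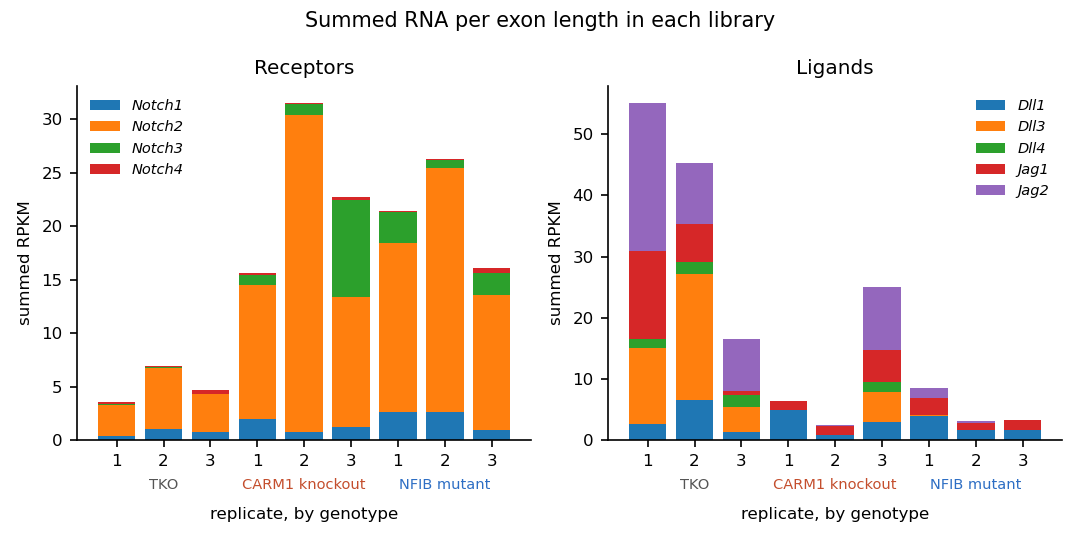
Summed RPKM of the 4 receptors (left) and 5 ligands (right) in each library, stacked by gene, with replicates 1 to 3 of each genotype side by side. Receptor sums are 3.55 to 6.95 in TKO and 15.7 to 31.6 in the mutants, mostly Notch2; ligand sums are 16.6 to 55.2 in TKO, 25.0 in CARM1 knockout replicate 3 and 2.45 to 8.46 in the other mutant libraries.

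Between the mutants no Notch gene was called by edgeR, as none of the 15514 genes was (0%), although 1414 genes had an unadjusted p under 0.05 and DESeq2 made calls, 317 genes with more and 223 with less RNA in CARM1 knockouts. The differences (CARM1 knockout minus NFIB mutant, log2) were 5.72 (SE 2.41, adjusted p = 0.542) for Dll3, 8.22 (SE 2.82, adjusted p = 0.526) for Dll4 and 2.39 (SE 1.91, adjusted p = 0.758) for Jag2, all carried by CARM1 knockout replicate 3. Without it the values for Dll3 and Jag2 turned to -1.18 and -3.03. For the receptors they were -0.70 (SE 0.57) for Notch1, 0.09 (SE 0.43) for Notch2, 0.93 (SE 1.13) for Notch3 and -0.15 (SE 0.83) for Notch4. Values that miss the threshold do not show that the mutants are alike.

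ATAC-seq counts the reads at open chromatin, where a transposase can cut. The labels number the replicates of both assays 1 to 3 but do not say that equal numbers stand for 1 tumor, so an RNA and an ATAC-seq library of the same number are not taken as a pair. Of the ligand peaks more were called lower than higher in both mutants. Of the receptor peaks more were called higher than lower, most of these at Notch2 (13 in CARM1 knockouts and 16 in NFIB mutants). Notch1 had 4 higher and 6 lower in each mutant. The call for peaks used the same adjusted p and a log2 fold change of 0.5 or more in either direction. Of the 67 peaks, 21 were higher and 21 lower in CARM1 knockouts, or 62.7%, against 71.1% of all 111116 peaks tested (38.7% higher and 32.4% lower). NFIB mutants had 26 higher and 22 lower, or 71.6%, against 73.3% of all peaks (39.3% higher and 34.0% lower), and no peak of any gene was called between the mutants by edgeR (0%; DESeq2 called 523 and 537). Of the 48 receptor peaks, 19 were higher and 8 lower in CARM1 knockouts and 24 and 8 in NFIB mutants, with median log2 fold changes of 0.83 and 1.13. In CARM1 knockouts the share of receptor peaks called higher was thus near that of all peaks (38.7%). Among the 19 ligand peaks, 2 were higher and 13 lower in CARM1 knockouts and 2 and 14 in NFIB mutants, with medians of -1.92 and -2.29. The median over all peaks tested was 0.22 in both comparisons and became 0.79 with scaling by total counts, when calls stood at 52571 higher and 27254 lower for CARM1 knockouts and 52670 and 29271 for NFIB mutants. The peaks described singly below are promoter peaks and most changed peaks, the latter chosen on these values, and peaks of 1 gene lie close together and are not independent.

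The Notch2 peaks that were called all lay in introns. Of its 28 peaks, 13 were higher and 2 lower in CARM1 knockouts and 16 and 2 in NFIB mutants. The most changed was peak 22, in an intron 54400 bp from the start, at 0.414, 0.371 and 0.0845 CPM in TKO, 3.90, 1.67 and 2.73 CPM in CARM1 knockouts and 4.005, 2.17 and 3.36 CPM in NFIB mutants. The groups did not overlap, and the log2 fold changes were 3.21 (SE 0.62, adjusted p = 0.00137) and 3.41 (SE 0.62, adjusted p = 0.000929). A larger intronic peak, 43416 bp from the start, had a mean of 3.998 CPM in TKO, 32.6 CPM in CARM1 knockouts and 37.1 CPM in NFIB mutants. The promoter peak of Notch2 was at 16.4, 16.2 and 31.6 CPM in TKO, 25.3 to 35.6 CPM in CARM1 knockouts and 24.3 to 33.8 CPM in NFIB mutants. Its log2 fold changes of 0.43 and 0.44 (SE 0.27 each) were not called, TKO replicate 3 lying among the mutants, and without that library both were, at 0.83 (adjusted p = 0.00706) and 0.84 (adjusted p = 0.00655), as they were with scaling by total counts (0.97 and 0.96).

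Notch3 had 2 of its 6 peaks higher in CARM1 knockouts and 3 in NFIB mutants, the most changed of them upstream of the gene. This peak 6, whose middle lies at -3085 bp from the start and which carries the AP-1 sites printed above, was at 0.223, 0.185 and 0.169 CPM in TKO, 1.34, 1.88 and 1.40 CPM in CARM1 knockouts and 1.76, 1.85 and 4.396 CPM in NFIB mutants. All mutant libraries lay above TKO, with log2 fold changes of 2.98 (SE 0.56, adjusted p = 0.00116) and 3.77 (SE 0.57, adjusted p = 0.000321). Its promoter peak, at 4.48 to 5.75 CPM in TKO and 5.34 to 7.44 CPM in the mutants, was not called, with log2 fold changes of 0.36 (SE 0.33) and 0.20 (SE 0.33). With scaling by total counts both passed, at 0.95 (adjusted p = 0.0285) and 0.78 (adjusted p = 0.0605).

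Notch1 was mixed, with 4 peaks higher and 6 lower of 12 in each mutant. Peak 7, an intronic peak of 3019 bp, lost most of its reads, from 31.1, 47.9 and 19.6 CPM in TKO to 3.15, 2.04 and 3.10 CPM in CARM1 knockouts and 2.12, 3.75 and 1.30 CPM in NFIB mutants, and its groups did not overlap. The log2 fold changes were -3.57 (SE 0.46, adjusted p = 0.000164) and -3.78 (SE 0.47, adjusted p = 0.000113). Peak 10, at an internal start, rose from 14.1, 13.6 and 9.0 CPM in TKO to 29.6, 19.0 and 20.3 CPM and to 28.3, 31.5 and 19.3 CPM in the mutants, with log2 fold changes of 0.91 (adjusted p = 0.0126) and 1.11 (adjusted p = 0.00448). The small peak at the outer start of Notch1, peak 12, was not called in either mutant (0.61, adjusted p = 0.317, and -0.08, adjusted p = 0.899). Over the same gene, intronic peaks 8 and 11 rose from means of 2.25 and 1.30 CPM in TKO to 13.8 and 8.62 CPM in CARM1 knockouts and 15.1 and 10.7 CPM in NFIB mutants. Notch4 had 2 peaks, of which the larger, at an internal start, had 41.3 to 53.8 CPM in TKO, 38.2 to 41.1 CPM in CARM1 knockouts and 31.2 to 39.1 CPM in NFIB mutants. These ranges did not reach the TKO ones, but the log2 differences of -0.25 and -0.36 (SE 0.15 each) were not called and turned positive with scaling by total counts. The small peak at its outer start was called higher in NFIB mutants (log2 fold change 1.86, adjusted p = 0.0149).

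**Figure D4:**
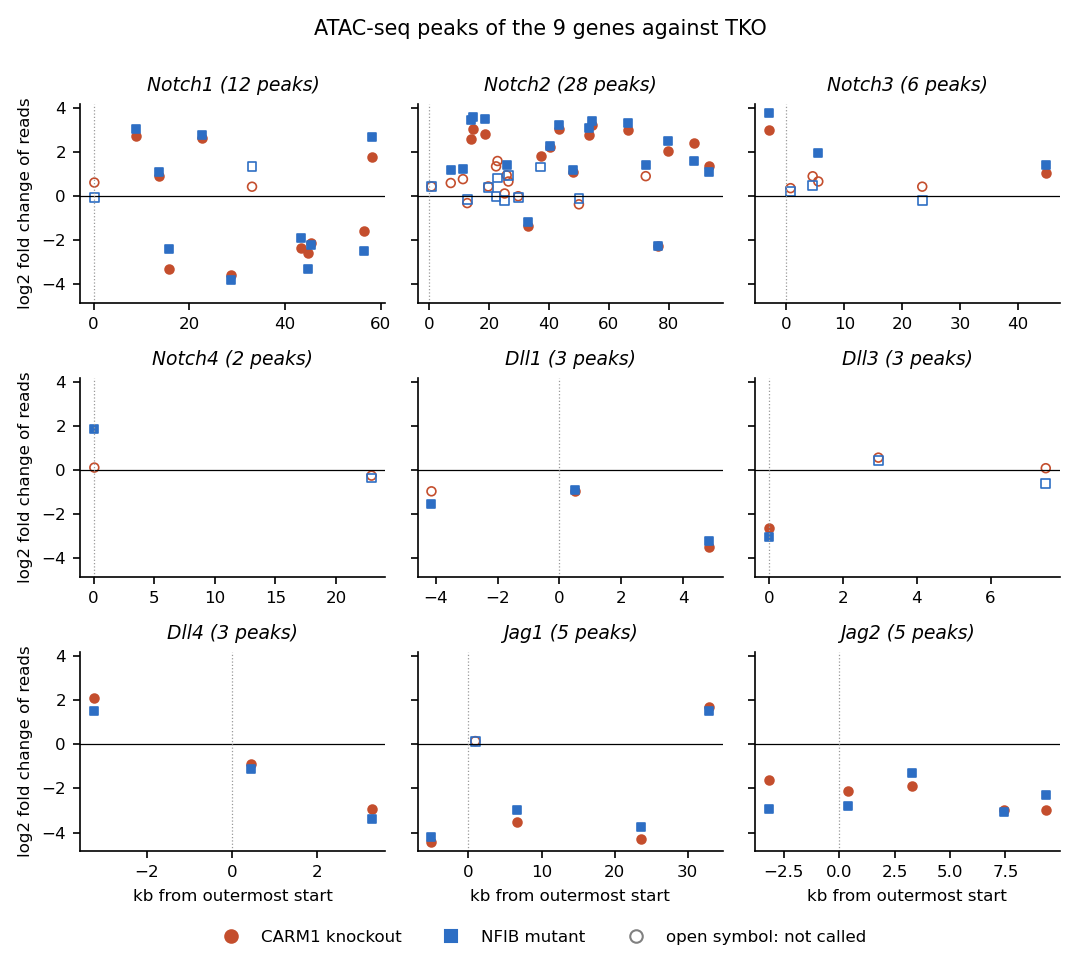
Log2 fold change of ATAC-seq reads against TKO (vertical axis) for each of the 67 peaks, by distance in kb of the peak's middle from the outermost annotated start (dotted line, negative is upstream), in CARM1 knockouts (circles) and NFIB mutants (squares), filled where called. Peaks of Notch2 lie mostly above 0 and those of Jag2 all below 0, while Notch1 has 4 peaks called higher and 6 called lower in each mutant.

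At the ligands the promoter of Dll3 was less accessible in every mutant ATAC-seq library than in TKO. Its promoter peak, peak 3, was at 40.0, 50.8 and 13.6 CPM in TKO, 4.44, 5.40 and 7.04 CPM in CARM1 knockouts and 5.14, 3.92 and 3.63 CPM in NFIB mutants. The groups did not overlap, and ATAC-seq replicate 3 was the highest CARM1 knockout library at the peak but lay below the lowest TKO library. The log2 fold changes were -2.63 (SE 0.43, adjusted p = 0.000576) and -3.04 (SE 0.44, adjusted p = 0.000254). The other 2 peaks of Dll3 were not called in either mutant.

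Dll4 peak 3, at an internal start 3271 bp into the gene, was at 36.8, 33.2 and 13.2 CPM in TKO, 2.53, 2.88 and 5.30 CPM in CARM1 knockouts and 2.51, 2.98 and 2.47 CPM in NFIB mutants. These groups did not overlap either, and ATAC-seq replicate 3 of the CARM1 knockouts was the highest mutant library. Log2 fold changes were -2.96 (SE 0.44, adjusted p = 0.000327) and -3.38 (SE 0.44, adjusted p = 0.000154). The peak at the outer Dll4 start, which also covers the start of Gm14207, fell less, by 0.92 (adjusted p = 0.0108) and 1.12 (adjusted p = 0.0038) on the log2 scale. Scaling by total counts ended the CARM1 knockout call (-0.31, adjusted p = 0.318). A small upstream peak, at -3223 bp from the start, was higher in both mutants.

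All 5 peaks of Jag2 were lower in both mutants. Its promoter peak was at 39.7, 25.0 and 31.4 CPM in TKO, 3.51, 5.28 and 13.3 CPM in CARM1 knockouts and 5.86, 5.56 and 2.41 CPM in NFIB mutants. All mutant ATAC-seq libraries lay below TKO, with log2 fold changes of -2.12 (SE 0.49, adjusted p = 0.00357) and -2.80 (SE 0.51, adjusted p = 0.000878). Intronic peak 2, printed above, was at 3.76 to 12.4 CPM in TKO and at 0.922 to 1.37 CPM in the mutants, with log2 fold changes of -3.0 and -3.06 (SE 0.51 each).

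Jag1 kept an open promoter. Its promoter peak had 76.2, 70.6 and 31.1 CPM in TKO, 52.6, 71.0 and 72.0 CPM in CARM1 knockouts and 61.1, 61.9 and 68.1 CPM in NFIB mutants, ranges that overlapped, with log2 differences of 0.14 (SE 0.27) and 0.10 (SE 0.27) that turned negative with DESeq2 size factors and passed as higher with scaling by total counts (0.76, adjusted p = 0.0190, and 0.72, adjusted p = 0.0241). Away from the promoter 3 peaks were lower in both mutants, and 1 intronic peak was higher. At Dll1, intragenic peak 1 with the 3 E-boxes was at 5.99, 13.04 and 1.18 CPM in TKO, 0.904, 0.461 and 0.459 CPM in CARM1 knockouts and 1.17, 0.770 and 0.275 CPM in NFIB mutants. TKO replicate 3 and NFIB mutant replicate 1 were almost level there, and the log2 fold changes were -3.47 (SE 0.84, adjusted p = 0.00439) and -3.20 (SE 0.83, adjusted p = 0.00585). The main promoter peak of Dll1, which also covers the start of A930024N18Rik, was lower by less, with log2 fold changes of -0.95 (adjusted p = 0.00738) and -0.90 (adjusted p = 0.00906), while Dll1 RNA was not called. Scaling by total counts ended both calls of this promoter peak.

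The letters of the middle 300 bases were counted over all peaks. The AP-1 site was in 38.1% of the 21 Notch gene peaks higher in CARM1 knockouts and in 9.52% of the 21 lower ones, against 41.0% of all higher and 8.13% of all lower peaks. For NFIB mutants the shares were 34.6% of 26 and 9.09% of 22, against 41.1% and 8.06%. The E-box was in 14.3% of the higher and 33.3% of the lower Notch gene peaks in CARM1 knockouts, against 19.0% and 28.0% of all such peaks, and in 15.4% and 36.4% in NFIB mutants, against 19.2% and 27.7%. The RBPJ core was in 9.52% of the higher and 42.9% of the lower Notch gene peaks in CARM1 knockouts and in 19.2% and 45.5% in NFIB mutants, against 28.7% and 26.6% and 28.8% and 26.4% of all such peaks. With 21 to 26 peaks in a class, a few peaks set these shares. The palindrome of NFI factors (TGGC and GCCA with 5 bases between) was in none of the 67 peak middles and in 2.21% of all 111660 that could be read, and nothing about NFIB at these genes follows from it.

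Genes that act on or after the receptor were followed as 9 lists of 53 genes, of which 49 passed the filter on low counts. In CARM1 knockout 9 were higher and 7 lower, against 20.5% and 18.3% of all genes tested. In NFIB mutants 12 were higher and 13 lower, against 22.3% and 23.5%. Without CARM1 knockout replicate 3 the CARM1 knockout counts became 11 and 13, of 52 then tested, against 19.8% and 19.8% of all genes. These counts are near the background, and the counts by list below describe these genes only. The median log2 fold change over the 49 was -0.14 and -0.25, against -0.03 and -0.05 over all genes. Of 5 nuclear effectors 3 were higher in both mutants. Rbpj, the DNA-binding partner of the cut receptor, was at 97.4 to 125 CPM in TKO and 197 to 486 CPM in the mutants, with log2 fold changes of 1.21 (SE 0.36, adjusted p = 0.0324) and 1.42 (SE 0.36, adjusted p = 0.0160). The Mastermind coactivators Maml2 (2.34 and 2.11) and Maml1 (0.97 and 1.26) also rose, and Maml3 was not called.

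No target gene of the pathway was called higher. Hey1, a repressor and classical Notch target, was at 31.8 to 46.4 CPM in TKO, 1.02, 1.52 and 8.71 CPM in CARM1 knockouts and 2.19, 0.432 and 0.445 CPM in NFIB mutants. All mutant libraries lay below TKO, with log2 fold changes of -3.40 (SE 0.98, adjusted p = 0.0309) and -5.27 (SE 1.08, adjusted p = 0.00741). Hes1, the best known target, was at 5.80 to 47.3 CPM in TKO and 5.12 to 24.1 CPM in the mutants, with log2 differences of -0.14 (SE 0.92) and -0.62 (SE 0.92) that were not called. Nrarp, a feedback inhibitor, was not called (-2.60, SE 1.41, and -2.08, SE 1.38). Hes5 had 26, 25 and 5 reads in TKO and 1 read in the 6 mutant libraries together, and it did not pass the filter on low counts, nor did Hey2 and Heyl. Without CARM1 knockout replicate 3 Hes5 and Hey2 passed the filter. Hes5 was then called lower in CARM1 knockouts (-6.95, adjusted p = 0.0488), and Hey2 was not called. None of the 6 corepressors was called.

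Of 10 genes for the proteases that cut the receptor, 4 were higher in CARM1 knockouts and 6 in NFIB mutants, with 1 lower in each. Furin, which cuts the receptor on its way to the membrane, was at 25.1 to 41.7 CPM in TKO and 158 to 276 CPM in the mutants, with log2 fold changes of 2.68 (SE 0.27, adjusted p = 0.000717) and 2.70 (SE 0.27, adjusted p = 0.000526). The gamma-secretase genes Psen2 (2.26 and 1.89) and Ncstn (1.09 and 1.5) and the ADAM protease gene Adam17 (0.88 and 1.02) rose in both. The gamma-secretase gene Aph1b fell (-1.73 and -1.52). Adam10 was not called, at 0.769 (adjusted p = 0.0613) and 0.798 (adjusted p = 0.0470), below the fold threshold. Without CARM1 knockout replicate 3 it was called higher in CARM1 knockouts (0.855, adjusted p = 0.0764). Among 5 glycosyltransferases only Mfng, a Fringe enzyme that changes which ligand a receptor answers to, was called, lower in NFIB mutants (-8.46, SE 2.42, adjusted p = 0.0255). It had 1229, 1867 and 417 reads in TKO, 3, 2 and 585 in CARM1 knockouts and 2, 5 and 0 in NFIB mutants, so CARM1 knockout replicate 3 again lay within TKO and the others far below. Without it Mfng was called lower in CARM1 knockouts too (-8.28, adjusted p = 0.00481).

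Of 4 ubiquitin ligases that prime ligands, Neurl1b was lower in both mutants (-2.69 and -2.65), and Mib1, the main one, was lower in NFIB mutants (-0.81, adjusted p = 0.0210). Among 7 genes acting on receptor trafficking, Dtx3 was lower (-1.76 and -1.75) and Dtx2 higher (0.80 and 0.85) in both, and Dtx1 was lower in NFIB mutants (-7.85, adjusted p = 0.0287) and, without CARM1 knockout replicate 3, in CARM1 knockouts (-9.11, adjusted p = 0.00562). Of 5 other ligands and antagonists, Cntn1 was lower in both (-6.71 and -4.60) and Dner in NFIB mutants (-6.95, adjusted p = 0.0409) and, without replicate 3, in CARM1 knockouts (-8.20, adjusted p = 0.0197). Regulators tied to neuroendocrine fate had Rest, the repressor of neuronal genes, at 4.18 to 6.69 CPM in TKO and 47.3 to 63.9 CPM in all 6 mutant libraries (log2 fold changes 3.37, SE 0.24, adjusted p = 0.000331, and 3.35, SE 0.24, adjusted p = 0.000257). Neurod1, a neuroendocrine bHLH factor, had no read in any mutant library, at least 27.1-fold and 26.5-fold lower than TKO when set at 3 reads per library. The neuroendocrine zinc finger gene Insm1 was called lower in NFIB mutants (-9.39, SE 2.31, adjusted p = 0.0147) and, without replicate 3, in CARM1 knockouts (-6.91, adjusted p = 0.0191). Rest was thus high in CARM1 knockout replicate 3 (50.1 CPM), the library that kept Dll3, Dll4 and Jag2.

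**Figure D5:**
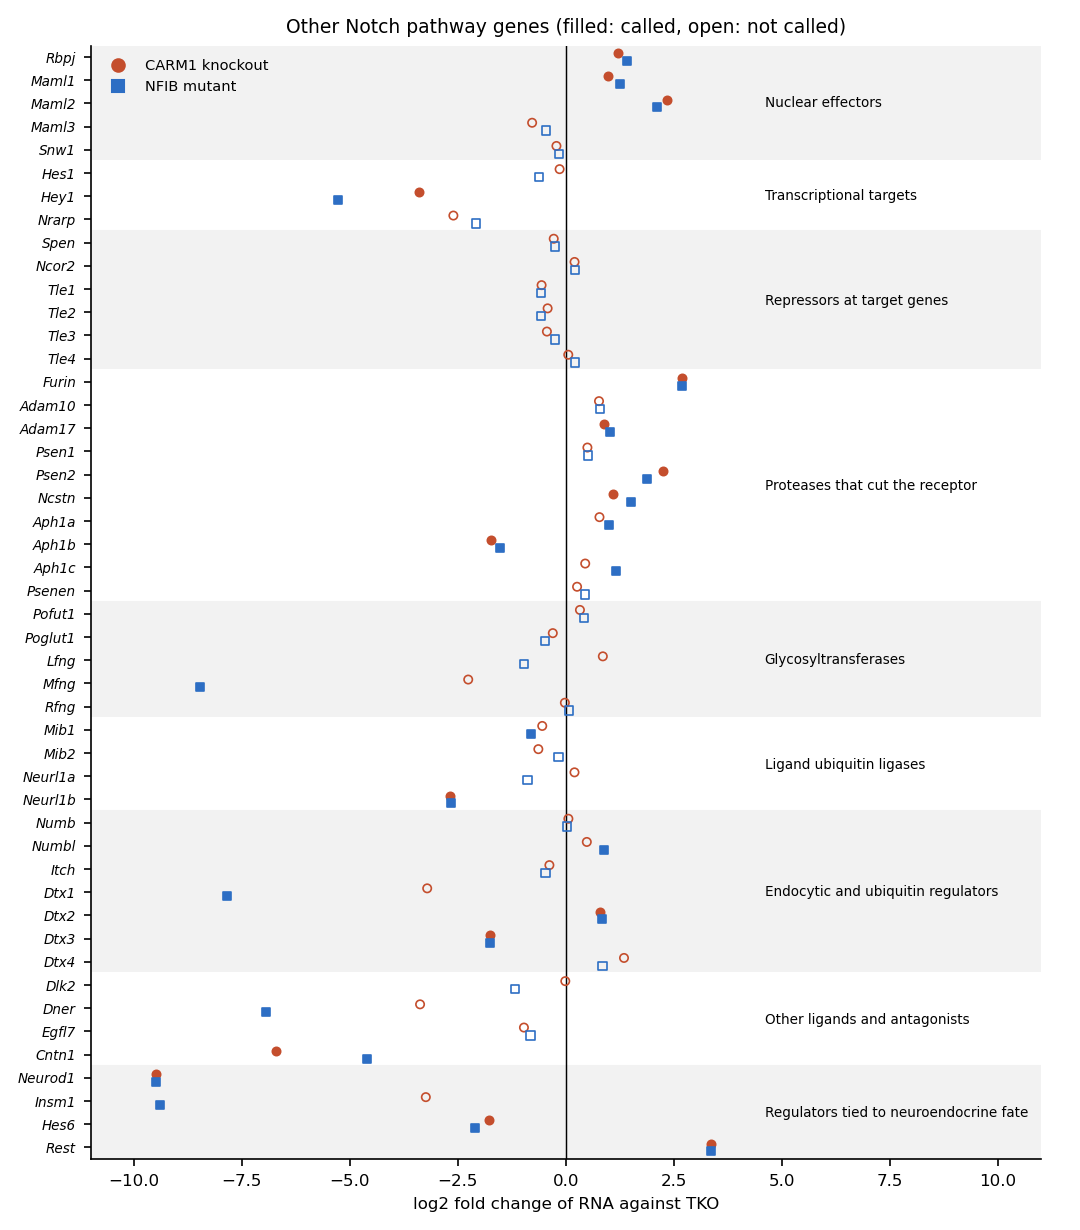
Log2 fold change of RNA against TKO (horizontal axis) for tested genes of the 9 pathway lists (shaded bands), in CARM1 knockouts (circles) and NFIB mutants (squares), filled where called. Rbpj, Maml1, Maml2 and most called proteases lie above 0, and Hey1, Mfng, Dtx1, Dner, Neurod1, Insm1 and Hes6 lie below 0.

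The genes most alike to each member were those with the highest Pearson correlation of log2 CPM over the 9 RNA libraries, given as a description since the libraries share genotypes. Dll3 was closest to Gm3512 (0.997), Rimbp2 (0.997) and St8sia3 (0.996), Dll4 to Amer3 (0.996), Golga7b (0.995) and Ugt8a (0.995), and Jag2 to Map7 (0.991), Fam189a2 (0.975) and Cadm4 (0.975). Notch2 was closest to Sptlc1 (0.975), Dph5 (0.967) and Gpr153 (0.967), and Notch3 to Bmp1 (0.974), Serf2 (0.959) and Tm9sf3 (0.957). Notch1 was closest to Tent5c (0.973), Rnf13 (0.916) and Arl14ep (0.912), and Jag1 to Tnks2 (0.949), Rcbtb1 (0.932) and Deptor (0.926). Notch4 was closest to Nap1l3 (0.901), Rtl8b (0.898) and Cmtm4 (0.896), and Dll1 to Ppp1r14a (0.883), Phf3 (0.873) and Zfx (0.871).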

How the data were processed

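RNA-seq and ATAC-seq of 9 mouse lung tumor libraries each were used. The deposited RNA values were raw counts per gene that the authors made from trimmed reads with HTSeq. The deposited ATAC values were raw counts per peak, for peaks called by the authors and counted in every library. The processing notes name GRCm38, featureCounts, Genrich and DESeq, the Methods name Bowtie2 and MACS2, and no versions or strand setting are given in the sources used here. Groups came from the sample labels and columns were matched to them by name. A table's 5 summary entries were kept out. Reads assigned to no gene were 10.0 to 12.2% in TKO and 3.65 to 5.17% in the mutants.

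Counts were fitted with edgeR 4.0.16 (R 4.3.3; TMM, filterByExpr, robust quasi-likelihood), 1 model of 9 libraries per assay, with Benjamini-Hochberg adjustment over all features. The SE of an edgeR log2 fold change was derived from the test, as its absolute value divided by the square root of the F statistic. The procedure was tested on simulated data. DESeq2 1.42.0, other scalings and filters, a replicate block and leaving out each library were alternatives. Exons, starts and lengths came from GENCODE vM21, sequence from RefSeq GRCm38.p6. Named peaks were, per gene, the promoter peak with the most reads and the peak with the largest mean change among those called the same way in both mutants; pathway genes given values are the largest called of each list, with a few chosen after their values were seen (Hes1, Nrarp, Hes5). The members and lists were chosen with earlier results of these data known. Total counts of 15848866 to 20915057 (RNA) set the precision. A few items that this rule names are not reported here.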

Additional observations from a re-analysis of the deposited data

How the results depend on the processing

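Leaving out CARM1 knockout replicate 3 raised the Notch genes called in CARM1 knockout from 2 to 5, the highest value of leaving out any library (lowest 2), and in NFIB mutants the range was 4 to 6 against 5. Requiring 10 counts in every library left 1 and 2 of these genes called, and 16 in place of 25 pathway genes in NFIB mutants, since fewer genes were then tested. DESeq2 called 1 pathway gene, Mfng, between the mutants, where edgeR called 0. Peak counts stayed between 32 and 51 in CARM1 knockout (42 as reported) and between 35 and 52 in NFIB mutants (48).

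The sign turned for the values that follow. Under other settings, Notch4 RNA in CARM1 knockouts went from 0.04 to -0.23 (totals), -0.0067 (10 counts) and -0.041 (replicate block), and in NFIB mutants from 0.19 to -0.17 (totals) and -0.13 (replicate block). Notch4 peak 2 went from -0.25 to 0.33 (totals), 0.12 (totals without the largest peaks) and 0.15 (start-site peaks of evenly expressed genes) in CARM1 knockouts and from -0.36 to 0.22, 0.020 and 0.10 in NFIB mutants. Totals and the other total-based scalings also ended or added calls at promoter peaks, added at Notch2, Notch3 and Jag1 and ended at Dll1 and Dll4. The Jag1 promoter peak went from 0.14 to -0.048 (DESeq2 size factors) and -0.042 (DESeq2), and from 0.10 to -0.051 and -0.045. Leaving out 1 library gave ranges of -0.31 to 0.47 and -1.08 to 0.62 for Notch4 RNA, -0.88 to 0.57 and -1.08 to 0.31 for Dll1 RNA, and -0.16 to 0.36 and -0.20 to 0.32 for the Jag1 promoter peak, in CARM1 knockouts and NFIB mutants. Between the mutants the ranges were -1.18 to 9.44 for Dll3 and -3.03 to 4.25 for Jag2, both lowest without CARM1 knockout replicate 3. The cause was not tested.

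Replicate numbers did not pair the samples, the correlations of same-numbered deviations running from -0.297 to 0.118 in RNA and from -0.142 to 0.118 in ATAC-seq. With the replicate block 2 and 4 Notch genes, 40 and 47 peaks and 15 and 24 pathway genes were called in CARM1 knockout and NFIB mutants. Notch1 was the gene lost (adjusted p = 0.127), and it was also lost under totals (0.110).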
